A study of Mus musculus with 20 samples.

Results

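The genes described here are the interferon regulatory factors Irf1, Irf2, Irf3, Irf4, Irf5, Irf7, Irf8 and Irf9, followed across the hippocampi of 20 adult mice. They were chosen by gene symbol, as 8 of the 48709 genes in the count table. Of these, 7 passed the filter on low counts, as did 19797 genes in all, and Irf4 did not. Irf5 was selected on its measured counts, which were higher in exposed samples, so its differences with exposure are given as a description and carry no test.

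Interferon regulatory factors are transcription factors with a shared DNA-binding domain that recognises GAAA repeats in the promoters of interferon and inflammatory genes. Some are activated by pathogen sensors and switch on interferons and cytokines, some carry the signal of the interferon receptors to the nucleus, and others set the identity of immune cells. In the brain the family is best known from microglia, the resident macrophages, which need Irf8 and express Irf5.

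The study asked what remains in the adult hippocampus after exposure to air pollution before birth. Pregnant C57BL/6 dams (C57BL/6J in the study's methods) breathed nano-sized particulate matter (nPM), a fine fraction of urban traffic particles, at a labelled 300 mg/m3, a unit that the study's methods give as micrograms. Exposure ran for 5 h a day on 3 days a week from gestational day 2 to birth, and control dams breathed filtered air. RNA was sequenced from 5 mice of each sex and exposure, giving 10 females and 10 males. All mice were of the same strain, and the labels do not tie the offspring to the 5 litters of each exposure group. P-values therefore measure the spread between these samples, some of which may be littermates. Females were 17.71 to 18.29 weeks old and males 18.57 to 19.14 weeks, so sex and age cannot be told apart in any male-female comparison below. The methods describe an injection of the cell-division label EdU for male mice and also state that all animals received it, so the sources used here do not settle whether it differed by sex.

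Total counts ran from 19092067 to 38663408 with a median of 29468930. The shallowest libraries, nPM females 2 and 4, also held the most mitochondrial ribosomal RNA, at 13.2 and 13.3% of counts against 9.16 to 11.9% in the others. Summed microglia markers lay between 272 and 449 CPM (counts scaled to library size with TMM factors), with none of the 15 genes at 0 in all samples. Choroid plexus markers ran from 34.7 to 8271 CPM across samples. Lymphocyte markers stayed at or below 0.381 CPM. In whole tissue, fewer cells of a type and less RNA per cell cannot be told apart.

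The promoters of 4 members are shown because the results below turn on these genes: Irf2 differed by sex, Irf8 and Irf1 varied with the microglia markers, and Irf5 was picked for its level in nPM samples. Each line gives 100 bases of the plus strand from the 250 bases before the gene's start in RefSeq on GRCm38.p6. The stretches lie at different distances from the start and are not equivalent. They run from -250 to -151 in Irf2, -200 to -101 in Irf8, -120 to -21 in Irf1 and -100 to -1 in Irf5. Capitals mark matches, searched on both strands, to GAAA followed by any 2 bases and GAAA, a motif of the kind these factors bind, and to TTCNNNGAA, a motif of the kind STAT proteins bind. The motifs do not overlap in these windows.
Irf2, chr8:46739495-46739594: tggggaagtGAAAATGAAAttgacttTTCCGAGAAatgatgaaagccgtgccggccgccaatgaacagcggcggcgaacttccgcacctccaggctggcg
Irf8, chr8:120736158-120736257: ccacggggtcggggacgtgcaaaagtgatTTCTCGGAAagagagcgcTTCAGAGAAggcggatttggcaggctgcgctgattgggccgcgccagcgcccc
Irf1, chr11:53769894-53769993: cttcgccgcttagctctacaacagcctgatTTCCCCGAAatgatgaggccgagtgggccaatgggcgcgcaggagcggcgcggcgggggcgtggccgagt
Irf5, chr6:29526525-29526624: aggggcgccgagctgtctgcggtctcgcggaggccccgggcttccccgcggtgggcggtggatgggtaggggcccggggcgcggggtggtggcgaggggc
All 8 members matched the RefSeq promoter table, with 11 windows of 250 bases before to 50 bases after a start. The paired GAAA motif was found in 1 member, Irf2, at positions -241 to -232 from its start, and in 3.44% of all 32851 windows. TTCNNNGAA was found in 3 members and in 8.30% of all windows. Its first base lay at -224 in Irf2, at -90 in Irf1, and at -171 and -153 in Irf8. These letters were not found in the windows of Irf3, Irf4, Irf5, Irf7 and Irf9.

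On mm10, Irf5 (ENSMUSG00000029771.12) spans bases 29526625 to 29541871 of chromosome 6 on the plus strand. Its last 1045 bases lie under the end of Tnpo3, a nuclear import receptor gene on the minus strand. In a later Gencode release than the one used for counting, 14.1% of the exon bases of Irf5 are also Tnpo3 exon. The strand setting of the counting is not given in the sources used here, so reads from the shared bases cannot be assigned to one gene for certain. Irf1 (ENSMUSG00000018899.16) is on chromosome 11 at 53770014 to 53778374, Irf2 (ENSMUSG00000031627.9) on chromosome 8 at 46739732 to 46847458, and Irf3 (ENSMUSG00000003184.15) on chromosome 7 at 44997648 to 45002848. Irf4 (ENSMUSG00000021356.9) is on chromosome 13 at 30749226 to 30766927, Irf7 (ENSMUSG00000025498.15) on chromosome 7 at 141262706 to 141266481, Irf8 (ENSMUSG00000041515.9) on chromosome 8 at 120736358 to 120756694, and Irf9 (ENSMUSG00000002325.14) on chromosome 14 at 55603571 to 55610030. Of these, 4 share exon bases with a neighbour in that later release. They are Irf1 with Gm17334 (135 bases), Irf3 with Bcl2l12 (88), Irf7 with Phrf1 (45) and Irf9 with Rnf31 on the same strand (123).

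Per length, Irf3 and Irf2 were the most abundant members and Irf4 the least. Irf3, which is held inactive in the cytoplasm until sensors of viral nucleic acid act on it, had a mean of 3.27 ± 0.635 RPKM (CPM per kilobase of exon; SD, n = 20). Irf2, which restrains Irf1 at shared sites, had 2.58 ± 0.637 RPKM. Irf3 lay above Irf2 in all 10 males but in only 5 of 10 females, so in females these neighbours did not separate.

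Irf1, an activator induced by interferon gamma, had 1.30 ± 0.246 RPKM. Irf9, the DNA-binding subunit of the ISGF3 complex, had 1.19 ± 0.183 RPKM and Irf5, which acts downstream of Toll-like receptors and Myd88, had 0.952 ± 0.149 RPKM. Irf1 lay above Irf9 in 15 of 20 samples and Irf9 above Irf5 in 18 of 20, so these 3 genes also lay within each other's spread.

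Irf8, the lineage factor of macrophages and microglia, had 0.437 ± 0.0751 RPKM and lay below Irf5 in 20 of 20 samples. Irf7, the amplifier of the interferon response, had 0.203 ± 0.0782 RPKM. Irf4, a factor of lymphocytes and dendritic cells, had 0.0501 ± 0.0236 RPKM with 1 to 13 counts a library. This order held within each of the 20 samples. Over samples the ranges of Irf8 and Irf7 overlapped, as did those of Irf7 and Irf4, while those of Irf5 and Irf8 did not. Among the genes past the filter, the mean of Irf3 stood at the 49.5th percentile of RPKM, that of Irf5 at the 27.1st and that of Irf8 at the 15.02nd.

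**Figure D1:**
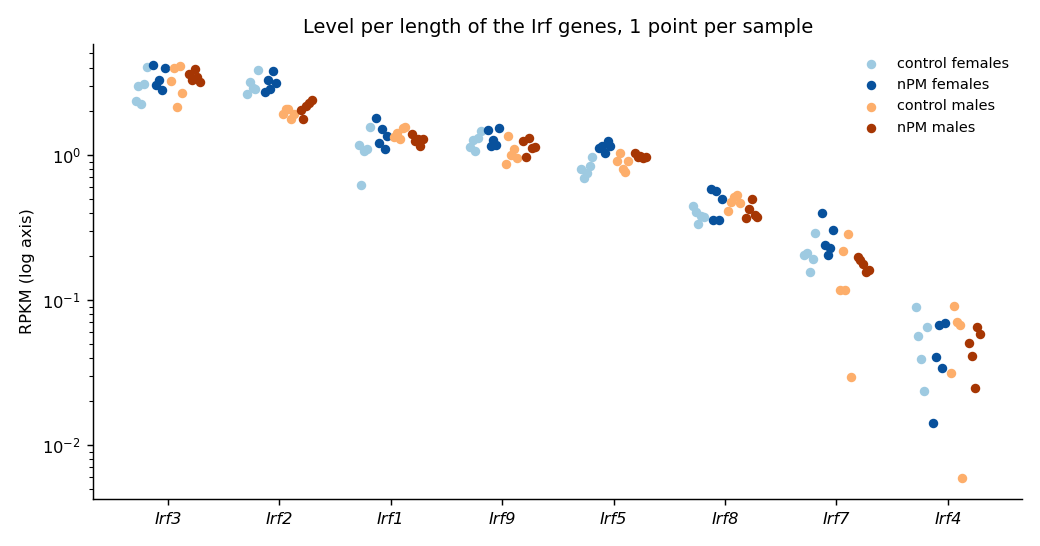
RPKM of the 8 Irf genes on a log axis, ordered by mean, with 1 point for each of 20 samples coloured by group. Irf3 and Irf2 overlap in females, Irf1, Irf9 and Irf5 overlap, and Irf8, Irf7 and Irf4 follow in that order within each of the 20 samples, although their ranges over samples overlap.

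Irf5 was higher in every nPM female than in any control female, whereas the male groups overlapped. In control females it measured 2.32, 2.01, 2.18, 2.43 and 2.81 CPM in replicates 1 to 5. In nPM females it measured 3.24, 3.33, 3.01, 3.64 and 3.32 CPM. The female groups did not overlap, as was so for 0.167% of all genes with the nPM group higher, and since this contrast chose the gene nothing is read from that. No member was lower in every nPM female (0.197% of all genes).

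In control males Irf5 measured 2.62, 3.00, 2.33, 2.20 and 2.64 CPM, and in nPM males 3.01, 2.79, 2.84, 2.76 and 2.80 CPM. Only 1 nPM male lay above all control males, and by a small margin. No member separated the male groups, which 0.429% of all genes did with nPM higher and 0.217% with nPM lower. The fitted log2 difference was 0.51 (SE 0.15, 1.42-fold) in females, 0.15 (SE 0.13, 1.11-fold) in males and 0.31 (SE 0.09, 1.24-fold) with both sexes in 1 fit. The male difference minus the female one was -0.34 (SE 0.17).

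These Irf5 levels rest on 53 to 113 counts a library. The coefficient of variation within groups was 9.61%, against 11.1% from counting alone, so counting error alone is as large as the spread between replicates. Tnpo3, the overlapping neighbour, averaged 97.5 ± 2.97 CPM in control females and 97.1 ± 5.57 in nPM females (SD, n = 5). In males it averaged 96.8 ± 2.31 and 99.2 ± 1.32 CPM, so its groups overlapped in both sexes. Reads of Tnpo3 outnumbered those of Irf5 in every group.

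Irf5 was also set against the summed microglia markers. It stood at 7.02 ± 0.541 CPM per 1000 CPM of markers in control females and at 9.19 ± 2.51 in nPM females. In males the values were 6.26 ± 1.01 and 6.82 ± 0.385. By this ratio the female groups overlapped, from 6.64 to 7.89 in controls and from 6.70 to 13.4 in nPM samples.

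**Figure D2:**
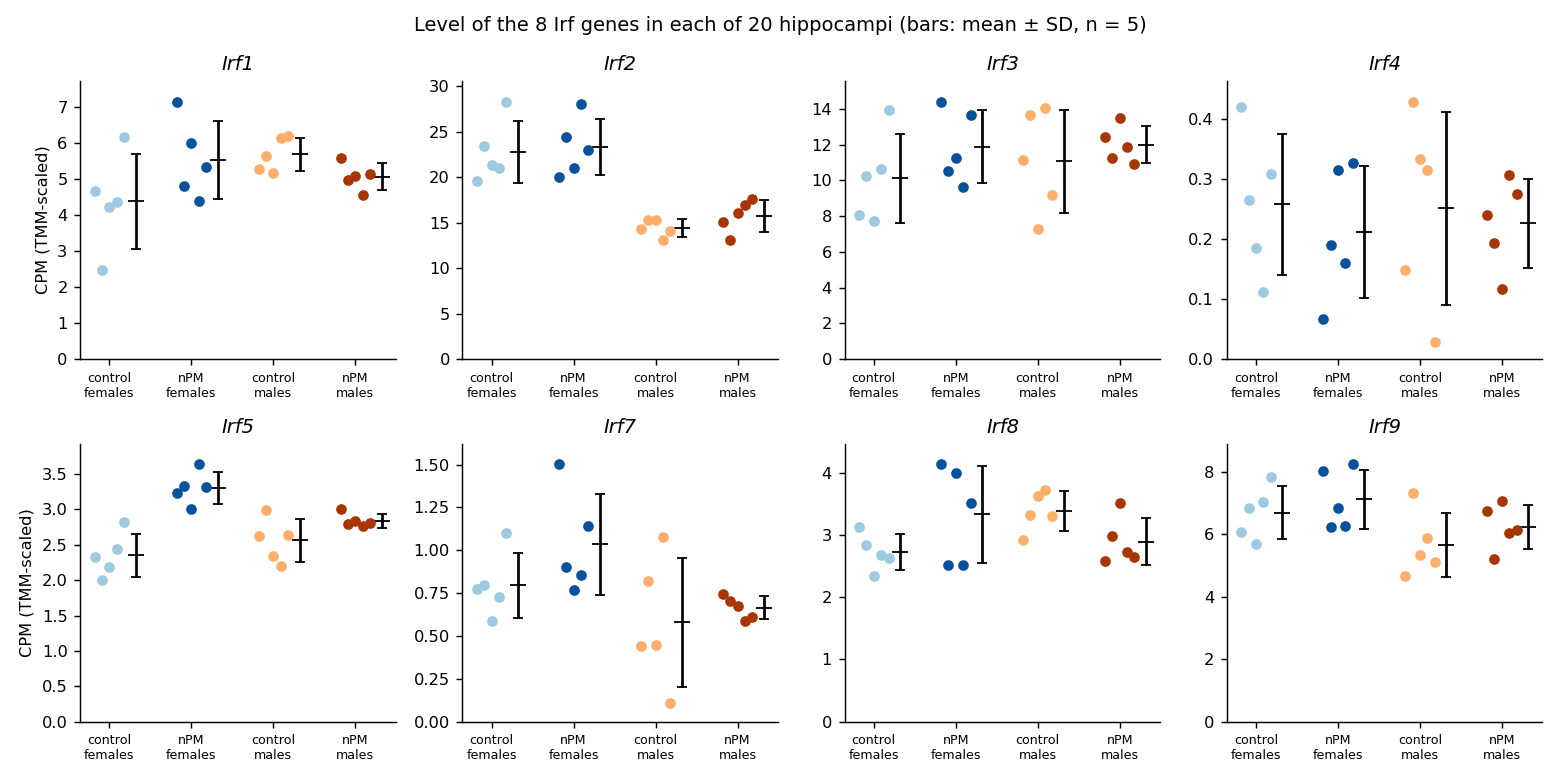
TMM-scaled CPM of each Irf gene in control and nPM females and males, with 1 point per sample and a bar for the mean ± SD (n = 5). Irf5 separates the female groups, and Irf2 lies lower in all males than in all females.

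No other member passed the test for a difference with nPM. At the study's threshold of an unadjusted p under 0.005, 0 of the 6 other members tested passed with both sexes (limma; 0.141% of all genes passed), in males (0.207%) or in females (0.0909%). None of the 19797 genes reached an adjusted p under 0.05 in these comparisons, while 416, 848 and 393 genes had an unadjusted p under 0.05. The edgeR quasi-likelihood test also called 0 genes, and the DESeq2 Wald test called 0, 1 and 1.

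The activators of interferon genes, Irf3 and Irf7, had positive differences that did not pass. With both sexes Irf3 differed by 0.21 on the log2 scale (SE 0.12) and Irf7 by 0.45 (SE 0.26), both with limma adjusted p = 0.9998. Irf3 ran from 7.72 to 13.9 CPM in control females and from 9.62 to 14.4 in nPM females, and from 7.30 to 14.0 and 10.9 to 13.5 in control and nPM males. Irf7 was measured with 4 to 45 counts, and the control male with 4 counts, replicate 5, set much of its male difference: 0.51 (SE 0.47) became -0.03 without it.

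Irf9, which carries the signal of the interferon receptors, differed by 0.13 (SE 0.09) with both sexes, and its groups overlapped in both sexes. Irf2 differed by 0.07 (SE 0.08). Irf4, left out of the fit, averaged 0.258 CPM in control and 0.212 in nPM females. In males the means were 0.250 and 0.226 CPM. Its values overlapped throughout.

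Irf8 and Irf1 had opposite signs in the sexes. Irf8 measured 3.13, 2.84, 2.34, 2.68 and 2.64 CPM in control females and 4.14, 2.52, 3.99, 2.51 and 3.51 in nPM females. In nPM females 3 libraries lay above all controls, and replicates 2 and 4, the shallowest, lay among the controls.

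Irf8 measured 2.92, 3.32, 3.63, 3.73 and 3.31 CPM in control males and 2.58, 2.99, 3.51, 2.73 and 2.65 in nPM males, 3 of which lay below all controls. Its log2 difference was 0.32 (SE 0.18) in females and -0.25 (SE 0.13) in males. The interaction of sex and nPM was -0.55 (SE 0.21, limma adjusted p = 0.987). None of the 6 members passed p under 0.005 in the interaction, where 0.217% of all genes passed. Without nPM females 2 and 4 the Irf8 interaction was -0.75 and passed p under 0.005, with a limma adjusted p of 0.885.

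Irf1 measured 4.67, 2.46, 4.22, 4.36 and 6.16 CPM in control females and 7.14, 4.81, 5.98, 4.38 and 5.34 in nPM females. It measured 5.28, 5.64, 5.15, 6.12 and 6.18 CPM in control males and 5.57, 4.98, 5.09, 4.54 and 5.12 in nPM males. In females 1 nPM library lay above all controls, and in males 4 nPM libraries lay below all controls. The log2 difference was 0.42 (SE 0.21) in females and -0.18 (SE 0.10) in males, with an interaction of -0.59 (SE 0.23, limma adjusted p = 0.987). Without control female 5 it was -0.70 and passed p under 0.005, with a limma adjusted p of 0.998.

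Most microglia markers had positive differences with nPM in females, as did Irf8 and Irf1, while in males their signs were mixed. None of the 15 passed p under 0.005 in either sex (limma), where 0.0909% of all genes passed in females and 0.207% in males. The summed level of the markers in females ran from 301 to 364 CPM in controls and from 272 to 449 with nPM, so these groups overlapped. In males it ran from 367 to 443 CPM in controls and from 402 to 439 with nPM. In the female comparison 14 of 15 markers lay above 0, with a median log2 difference of 0.21 against 0.00 over all genes, and in males 10 of 15, with a median of 0.03. With the summed markers as a covariate the Irf8 interaction was -0.41 and that of Irf1 -0.44. Choroid plexus markers ran from 46.9 to 502 CPM in control females and from 56.2 to 8271 in nPM females. With them as the covariate the interactions were -0.49 for Irf8 and -0.55 for Irf1.

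**Figure D3:**
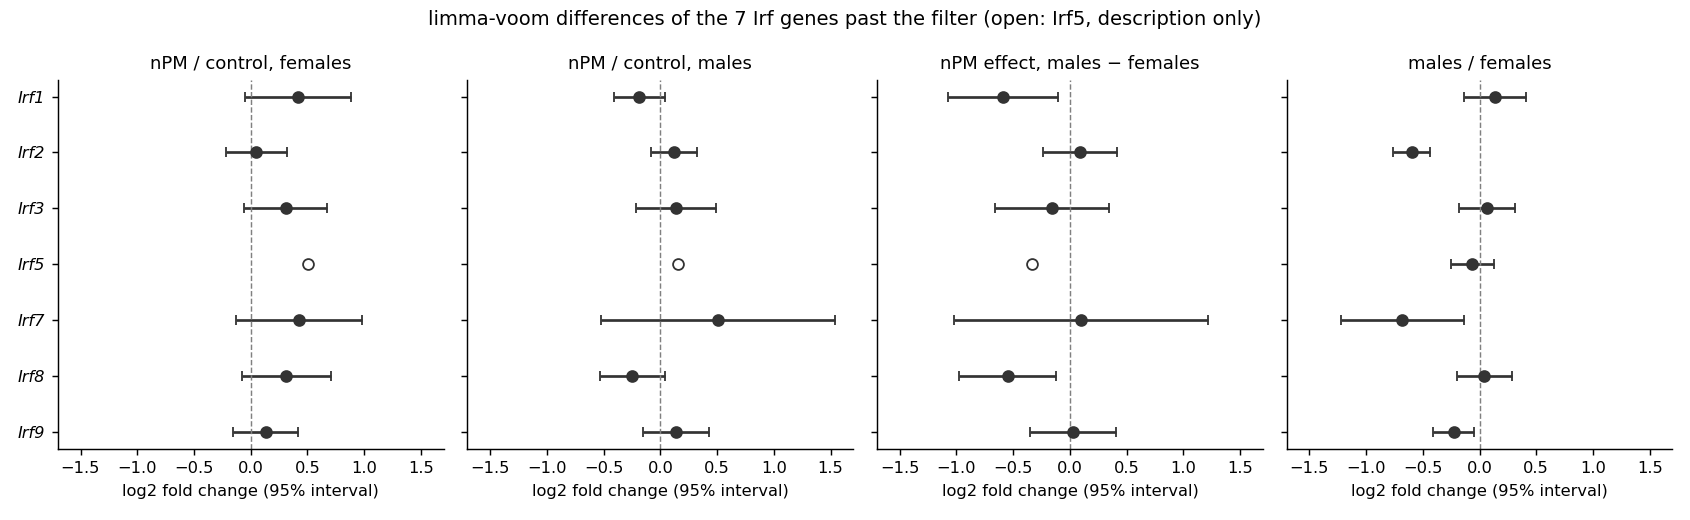
Log2 differences with 95% intervals from limma for the 7 Irf genes past the filter: nPM against control in females and in males, the difference between those effects, and males against females. Open points without an interval mark Irf5, chosen for its nPM values; among the others the intervals exclude 0 for Irf1 and Irf8 in the third panel and for Irf2, Irf7 and Irf9 in the last.

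Between the sexes, Irf2 was lower in every male than in any female, at 0.66-fold. Irf2 measured 19.6, 23.4, 21.4, 21.0 and 28.3 CPM in control females and 20.05, 24.5, 21.1, 28.0 and 23.0 in nPM females. It measured 14.3, 15.3, 15.3, 13.1 and 14.1 CPM in control males and 15.1, 13.1, 16.1, 17.0 and 17.6 in nPM males. The 10 males and the 10 females did not overlap, which was so for 3.04% of all genes with males lower. No member was higher in every male, as 1.95% of all genes were.

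The log2 difference of Irf2 was -0.60 (SE 0.08, limma adjusted p = 1.05e-05). Irf7 differed by -0.68 (SE 0.26, limma adjusted p = 0.0429) and Irf9 by -0.23 (SE 0.09, limma adjusted p = 0.0431). Thus 3 of 7 members passed an adjusted p under 0.05, all lower in males, where 40.4% of all genes passed with 21.6% lower and 18.8% higher in males. At an unadjusted p under 0.005, 1 of 7 members passed, Irf2, and 31.1% of all genes did.

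Irf2 passed under each of the 9 other settings and without each of the 20 libraries. Irf7 passed in 3 of 9 settings and without 7 of 20 libraries, with limma adjusted p between 0.0124 and 0.0816 when 1 library was left out. Irf9 passed in 4 of 9 settings and without 8 of 20 libraries, with limma adjusted p between 0.0167 and 0.0900. The calls of Irf7 and Irf9 thus sat at the threshold.

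The other members did not pass between the sexes: Irf5 differed by -0.06 (SE 0.09), Irf3 by 0.06 (SE 0.12), Irf8 by 0.04 (SE 0.12) and Irf1 by 0.14 (SE 0.13). Markers of several cell types also moved with sex. All 15 microglia markers were higher in males, with a median log2 difference of 0.26 against 0.02 over all genes. Of these, 7 passed an adjusted p under 0.05 (limma), as did 18.8% of all genes with males higher. All 5 endothelial markers were lower in males, at 55.1 to 72.6 CPM summed against 75.6 to 116 in females. Of these, 3 of 5 passed, as did 21.6% of all genes with males lower. All 7 choroid plexus markers (median 1.18) and all 3 red blood cell markers tested (median 1.63) were higher in males without passing. Of 7 hippocampal neuron markers 5 were lower in males (median -0.15), and 2 passed. Border macrophage markers were mixed, with 4 higher and 3 lower. The part of endothelial, hippocampal neuron and red blood cell markers in the Irf2 difference was not tested. With microglia markers as a covariate Irf2 differed by -0.48.

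Within groups, Irf8 varied with the microglia markers. Group means were removed from log2 values, and Irf8 then had a Pearson r of 0.71 with the summed markers over 20 samples (permutation p = 0.00223, 0.0156 adjusted over 7 genes) and a Spearman rho of 0.68 (permutation p = 0.00631, adjusted 0.0442). Without the 2 samples farthest from the median of the markers r was 0.57. The adjusted permutation p rose to 0.0730 without control male 1, 0.0974 without nPM female 3, 0.0892 without nPM female 4 and 0.0772 without nPM female 5. Without nPM females 2 and 4 together r was 0.52, with an adjusted permutation p of 0.255.

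Irf1 had r = 0.57 with the markers (permutation p = 0.0162, adjusted 0.0566) and rho = 0.61 (permutation p = 0.0141, adjusted 0.0495), so it passed by rank only. Irf1 passed by Pearson r as well when control female 3, control male 3, nPM female 1 or nPM male 1 was left out, with adjusted permutation p of 0.0491, 0.0261, 0.0249 and 0.0443. Irf5 did not vary with them detectably: r was -0.15 (permutation p = 0.541) and rho -0.07. Without the 2 samples farthest from the median of the markers r was 0.24. The spread of Irf5 within groups did not exceed counting error, so a correlation could have gone unseen. Irf2 had r = -0.45 and Irf7 r = 0.01, neither past the threshold.

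Among the 21 pairs of members, Irf3 and Irf9 varied together within groups. Their Pearson r was 0.75 (permutation p = 0.00106, adjusted 0.0223) and rho 0.78 (permutation p = 4.00e-04, adjusted 0.00840), and r was 0.79 without the 2 farthest samples. The adjusted permutation p was 0.0517 without control female 1, 0.0640 without control female 3, 0.0516 without control female 5 and 0.122 without nPM females 2 and 4 together. Irf3 and Irf7 had rho = 0.75 (permutation p = 0.00161, adjusted 0.0169) but r = 0.62 (permutation p = 0.0240, adjusted 0.252).

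**Figure D4:**
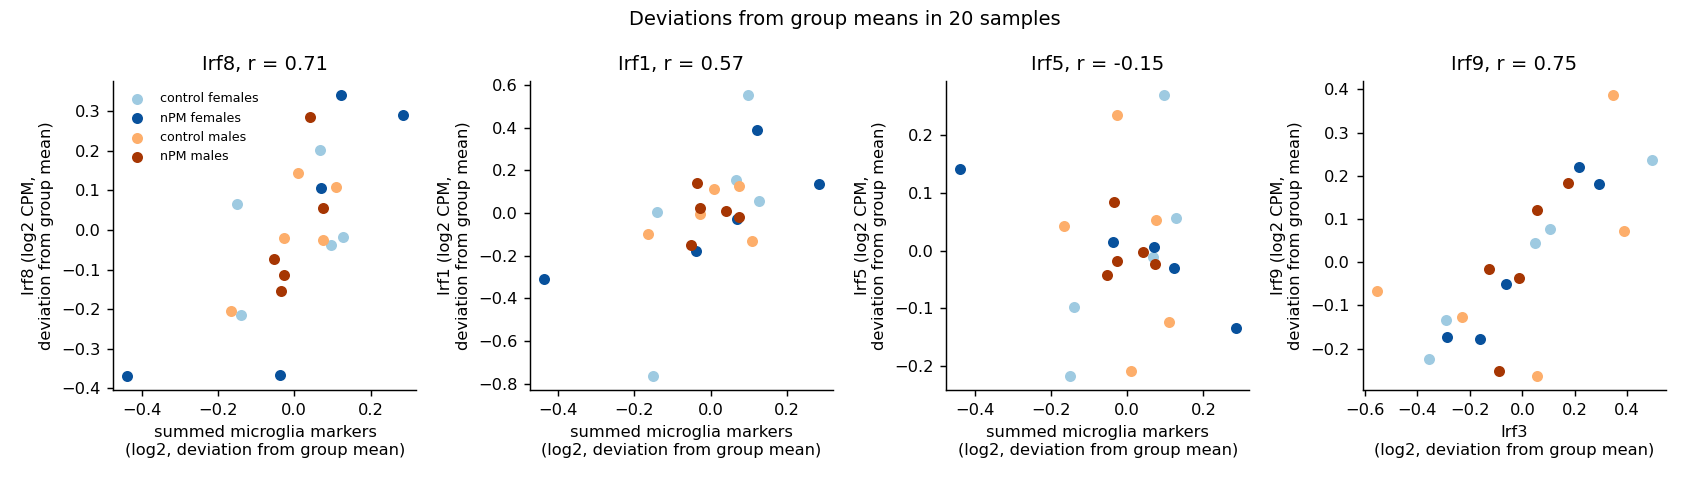
Deviations of log2 CPM from the group mean in 20 samples: Irf8, Irf1 and Irf5 against the summed microglia markers, and Irf9 against Irf3. Irf8 rises along the markers (r = 0.71), Irf5 does not do so detectably (r = -0.15), and Irf9 rises with Irf3 (r = 0.75).

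The genes most like Irf5 within groups, among 14675 genes with a mean count of at least 50, were Gm16386 (r = 0.77), Cep192 (0.73), F730043M19Rik (0.72), Galnt3 (0.71) and Ints6 (0.70), over 20 samples. Cep192 is a centrosome protein, Galnt3 a glycosyltransferase and Ints6 a subunit of the Integrator complex. None of them is an Irf gene or a microglia marker, and nothing is read from that. The coefficient of variation of Irf5 within groups was 9.61%, against 11.1% from counting alone. These r values, the highest among all genes compared, describe likeness and were not tested.

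Genes around the Irf pathway were counted from 7 lists. Of the interferon ligands, 0 of 9 passed the filter and 5 of 9 were at 0 in all samples, while Ifne and Ifna2 reached at most 2 counts. Of the 12 genes that activate Irf5 and Irf7, 0 passed p under 0.005 in the nPM comparisons (limma), where 0.0909 to 0.207% of all genes did. The same was so for the 13 tested genes that activate Irf3, among them the kinase Tbk1 and the adaptor Traf3, for the 10 receptor and ISGF3 genes tested, led in level by the kinases Jak1 and Jak2, and for the 9 partners and cofactors tested.

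Of the cytokines that Irf5 is known to induce, 3 of 10 passed the filter. Il12a, a subunit of interleukin-12, passed p under 0.005 with both sexes, as did 0.141% of all genes. Il12a was lower with nPM, at a log2 difference of -1.06 (SE 0.25, limma adjusted p = 0.9998). It rested on 3 to 34 counts a library, and Ccl3 differed by 0.17 (SE 0.30). The third, the chemokine Cxcl10, differed by 1.45 with both sexes (SE 0.46, 2.74-fold, limma adjusted p = 0.9998) and by 2.26 in females (SE 0.70), and did not pass p under 0.005. Cxcl10 had 0 to 23 counts a library and is named after its values were seen. The study had singled out Il12a on these samples, so this is not independent evidence.

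The interferon-stimulated genes, targets of ISGF3, differed in sign between the sexes. In females 14 of 15 lay above 0, with a median log2 difference of 0.45 against 0.00 over all genes, and in males 4 of 15, with a median of -0.17. None passed p under 0.005 in either sex (limma), where 0.0909% of all genes passed in females and 0.207% in males. Choroid plexus markers had the same signs, with a median of 0.94 in females and -0.34 in males. So did border macrophage markers (0.16 and -0.45) and Ccr2, the 1 monocyte or neutrophil marker tested (1.46 and -0.53). Other cell types did not share them: the medians were 0.21 and 0.03 for microglia and 0.25 and 0.005 for endothelial cells. They were 0.002 and 0.70 for red blood cells and -0.005 and 0.24 for hippocampal neurons. In the interaction 6 of 7 choroid plexus markers and 7 of 7 border macrophage markers lay below 0, with medians of -1.12 and -0.49. So did 12 of 15 microglia and 4 of 5 endothelial markers, with medians of -0.11 and -0.23 against 0.01 over all genes. Above 0 lay 3 of 3 red blood cell and 5 of 7 hippocampal neuron markers, with medians of 0.70 and 0.26. The part of these cell types in the values of the interferon-stimulated genes was not tested. In the interaction 1 of 15 interferon-stimulated genes passed p under 0.005, as did 0.217% of all genes. It was the helicase Ddx60, named because it passed, at -0.81 (SE 0.25, limma adjusted p = 0.987). Ifi27 and Ifitm3, the most abundant, differed by 0.55 and 0.42 in females without passing.

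Between the sexes, the pathway lists held 0 to 3 genes each that were lower in males at an adjusted p under 0.05 (limma), where 21.6% of all genes were. They were 3 of 12 activators of Irf5 and Irf7, 1 of 13 activators of Irf3, 2 of 10 receptor and ISGF3 genes, 2 of 9 partners and cofactors, 0 of 3 cytokines and 2 of 15 interferon-stimulated genes. Higher in males at this threshold were 1 of 10 receptor and ISGF3 genes, 1 of 3 cytokines and 1 of 15 interferon-stimulated genes. Of all genes 18.8% were higher. The genes named next were picked by their level or by p under 0.005. The kinases Ikbkb (-0.34, limma adjusted p = 2.57e-05) and Chuk (-0.23, limma adjusted p = 5.50e-04) activate Irf5 and Irf7. Tyk2 (-0.47, limma adjusted p = 4.50e-04) and Stat2 (-0.31, limma adjusted p = 5.90e-04) act with Irf9. The coactivators Ep300 (-0.36, limma adjusted p = 3.22e-05) and Crebbp (-0.38, limma adjusted p = 5.28e-05) were also lower in males, while Ifit2 was higher in males (0.33, limma adjusted p = 0.00965). Il12a was higher in males (0.63, limma adjusted p = 0.0469) and Ddx60 lower (-0.39, limma adjusted p = 0.0463). Irak1, Tbk1, Traf3, Jak1, Jak2, Irf2bp2, Ccl3, Ifi27 and Ifitm3, picked by level, did not pass between the sexes.

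**Figure D5:**
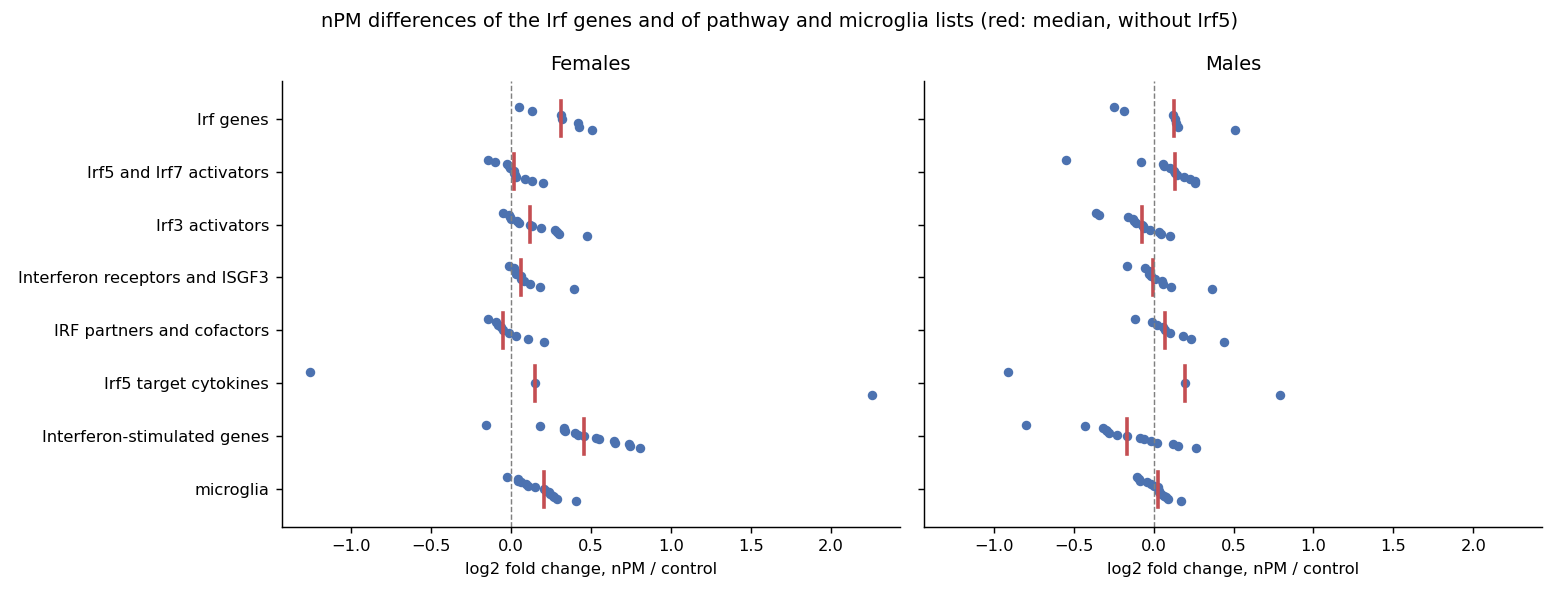
Log2 difference of nPM against control for each gene of the Irf genes, of 6 pathway lists and of the microglia markers, in females and in males, with 1 point per gene and a red line at the median, which leaves out Irf5. The interferon-stimulated genes have a median of 0.45 in females and -0.17 in males.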

How the data were processed

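Total RNA of the hippocampus was depleted of ribosomal RNA and sequenced on an Illumina HiSeq. Per the labels and the study's methods, the authors used Trimmomatic for trimming, HISAT2 for alignment to mm10 and featureCounts 1.5.0-p3 for counting, and deposited raw counts per gene and sample. The deposited gene map also holds gene lengths and a mean RPKM per gene as the authors' value, which the counts and lengths gave back to within 4.37e-11. RPKM here is TMM-scaled CPM divided by exon length in kilobases.

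Counts were filtered with filterByExpr (minimum count 10, minimum total 15), scaled by TMM and fitted with limma-voom (R 4.3.3, edgeR 4.0.16, limma 3.58.1), with sex as a covariate when both sexes entered, for nPM effects, their interaction with sex and the sex difference. Thresholds were the study's unadjusted p under 0.005 and a Benjamini-Hochberg adjusted p under 0.05 over all genes tested. Tests of correlation permuted samples within groups 100000 times, two-sided. Scripts were tested on simulated data. DESeq2 1.42.0 and edgeR's quasi-likelihood test served as alternatives, beside other filters, covariates and left-out libraries.

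Depth was 19092067 to 38663408 counts a library, and 3 counts, which a count of 0 allows, equal 0.0776 to 0.157 CPM. Intervals and floors on counts cover counting error only. The labels give no sequencing batch. Named genes were the members, genes overlapping them, the 2 most abundant of each pathway list, list genes with p under 0.005, and the 5 genes most like Irf5. The members and lists were chosen with earlier results of these data known. 1 further gene whose symbol falls in the range is not reported here.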

Additional observations from a re-analysis of the deposited data

How the results depend on the processing

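Over the settings the log2 difference of Irf5 ranged from 0.42 to 0.57 in females and from 0.09 to 0.20 in males, which is no support, since the gene was chosen on these samples. The sex difference of Irf2 passed in every setting, between -0.63 and -0.48. The number of members past the threshold between the sexes fell from 3 to 1 with every gene of at least 1 count kept, with edgeR, with the replicate block, with the microglia covariate and with the mitochondrial ribosomal RNA covariate, and ranged from 1 to 3 with 1 library left out. In the interaction it rose from 0 to 1 with the mitochondrial ribosomal RNA covariate, where Irf8 was -0.82 with a limma adjusted p of 0.862, and to 1 without nPM females 2 and 4, and ranged from 0 to 1 with 1 library left out. The number of members correlated with the microglia markers was 0 without nPM females 2 and 4 and 0 to 2 with 1 library left out, and so was the number of correlated pairs. The mean of Irf9 was 1.38 RPKM when mitochondrial genes were left out of the library size, against 1.19 ± 0.183 in the main setting. A smaller library size raises the RPKM of every gene, so a rise is not particular to Irf9. The causes of the other changes were not tested.

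Small differences that had not passed changed sign. Irf1 with both sexes was -0.026 with the microglia covariate and ranged from -2.9e-05 to 0.12 with 1 library left out, and Irf8 was -0.092 with that covariate, -1.1e-05 with the choroid plexus covariate and -0.055 to 0.048 with 1 library left out. Irf2 in females was -0.11 with the mitochondrial ribosomal RNA covariate, -0.064 without nPM females 2 and 4, and -0.016 to 0.12 with 1 library left out. Irf7 in males ranged from -0.031 to 0.86 with 1 library left out. The interaction of Irf7 was -0.21 with edgeR, -0.21 with DESeq2, -0.13 with the replicate block and -0.44 to 0.44 with 1 library left out. That of Irf9 was -0.044 with the mitochondrial ribosomal RNA covariate, -0.066 without nPM females 2 and 4 and -0.032 to 0.11 with 1 library left out. Between the sexes, the microglia covariate gave -0.13 for Irf1, -0.0087 for Irf3 and -0.22 for Irf8, the choroid plexus covariate -0.040 for Irf3 and -0.030 for Irf8, and leaving out nPM females 2 and 4 gave -0.025 for Irf8. Irf8 ranged from -8.6e-04 to 0.11 between the sexes with 1 library left out.

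Replicate numbers did not pair the samples. Samples of one number correlated between -0.36 and 0.16 in their deviations from group means, and 0 of 10 correlated best with their own number. The replicate block left 0 members past the threshold in the nPM comparisons. The choroid plexus and mitochondrial covariates and the removal of the 2 shallowest libraries were chosen after seeing the data. Counts of 53 to 113 for Irf5 and 4 to 45 for Irf7 limit what differences could be seen.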
